A study of Drosophila melanogaster with 3 samples.

Results

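CG18764 and Zaf1 are neighbouring genes on the right arm of chromosome 3 of Drosophila melanogaster, and CG18764 encodes the protein whose binding was mapped. The sites described are the peak summits that lay inside either gene body or within 20 kb of it. This window, 3R:11601466-11648452 on the dm6 build, spanned 47 kb. It held 4 of the 3754 summits of the optimal list, which the authors deposited after thresholding for reproducibility between replicates. It also held 18 of the 30000 summits of the pooled relaxed list, a longer list that takes in background. The optimal list was the 3754 highest peaks of the pooled one, so a single optimal peak need not be held by every replicate. In the relaxed lists of replicates 1, 2 and 3, each of 30000 peaks, the window held 9, 26 and 21 summits.

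The experiment was chromatin immunoprecipitation followed by sequencing, in which DNA bound by a protein is recovered with an antibody and read. The 3 samples form 1 group of biological replicates, as labelled: whole embryos, male and female together, aged 0 to 16 h, from a transgenic line stably expressing CG18764 with GFP at its C terminus. The antibody was against GFP, the chromatin was sonicated to 200 to 800 bp, and 1 control dataset served all 3 replicates, per the deposited file listing. All 3 replicates share the line, the stage and the antibody, so no comparison between groups was made. Whole embryos mix cell types, and a site bound in few cells cannot be told apart from one bound weakly in many. The insertion site of the transgene, the promoter and flanking DNA it carries, and whether an untagged CG18764 copy is present were not stated in the sources used here. The number of reads is unknown, so no interval that needs it is given.

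CG18764 belongs to the ZAD family of zinc-finger proteins. A ZAD, the zinc-finger-associated domain, lies near the N terminus and lets such proteins pair with one another, while their C2H2 zinc fingers can bind DNA. The family is large in insects, and several members act at insulators and promoters as architectural proteins, which help to organise how chromatin folds and where genes meet their neighbours. Zaf1 is one of them: its name stands for ZAD and Architectural Function 1.

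Both genes sat in a dense group of short genes. Zaf1 (FBgn0037921) covered 3R:11621466-11625644 on the minus strand, 4179 bp, with an outer transcription start site (TSS) at its far end and an inner one at 11623097. CG18764 (FBgn0042205) covered 3R:11626889-11628452 on the plus strand, 1564 bp, with 1 TSS, and 1244 bp separated the gene bodies. The window overlapped 9 genes, 8 of them protein-coding. In order they were Jupiter, which encodes a microtubule-associated protein, CG14710, Zaf1, CG14711, CG6813, CG18764, CG14712, Csk, which encodes the C-terminal Src kinase, and the antisense gene asRNA:CR44137. There were 3 pairs of start sites facing away from each other at short distance: 184 bp between Jupiter and CG14710, 242 bp between the inner Zaf1 start and CG14711, and 251 bp between CG6813 and CG18764.

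The sequences below show where the 4 optimal summits lay and the CG18764 promoter, which had none. They were read from the plus strand of the release 6 assembly, 5′ to 3′. Capitals mark matches on either strand to the motifs searched. These were the promoter element DRE, written TATCGATA, the BEAF-32 core within it, written CGATA and named for an insulator protein, and the GAGA repeat, written GAGAG. They also included the TATA box, written TATAAA, an E-box for basic helix-loop-helix proteins, written CACGTG, the homeodomain core, written TAATTA, and the motif of the zinc-finger protein M1BP. A BEAF-32 core or TATA box read from the other strand appears as its reverse complement. Of the Zaf1 and CG14711 space only the part that no exon covers is printed, and its summit lay to the left of that part, in an exon of a longer Zaf1 transcript. The summits lay at base 100 of the Jupiter and CG14710 sequence, 165 of the CG18764 and CG14712 sequence and 101 of the Jupiter intron sequence. The CG6813 and CG18764 space has no optimal summit.
Zaf1 and CG14711, 3R:11623234-11623338: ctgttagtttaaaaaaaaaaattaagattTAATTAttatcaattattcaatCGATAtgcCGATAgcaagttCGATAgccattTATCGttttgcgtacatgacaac
Jupiter and CG14710, 3R:11619907-11620089: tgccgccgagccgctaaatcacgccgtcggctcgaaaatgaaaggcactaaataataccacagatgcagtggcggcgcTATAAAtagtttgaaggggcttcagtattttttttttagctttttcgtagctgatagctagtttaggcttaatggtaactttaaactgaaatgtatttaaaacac
CG6813 and CG18764, 3R:11626639-11626888: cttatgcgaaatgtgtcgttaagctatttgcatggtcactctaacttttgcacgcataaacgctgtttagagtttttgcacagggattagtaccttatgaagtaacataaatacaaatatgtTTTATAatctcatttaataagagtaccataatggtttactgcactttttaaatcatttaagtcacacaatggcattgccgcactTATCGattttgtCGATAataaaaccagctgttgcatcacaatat
CG18764 and CG14712, 3R:11628459-11628758: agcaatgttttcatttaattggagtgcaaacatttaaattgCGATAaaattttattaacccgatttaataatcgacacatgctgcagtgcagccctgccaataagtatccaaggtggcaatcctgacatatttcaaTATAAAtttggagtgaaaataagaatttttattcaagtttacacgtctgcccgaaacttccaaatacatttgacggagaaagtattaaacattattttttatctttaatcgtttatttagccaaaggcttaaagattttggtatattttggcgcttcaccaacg
Jupiter intron, 3R:11613220-11613420: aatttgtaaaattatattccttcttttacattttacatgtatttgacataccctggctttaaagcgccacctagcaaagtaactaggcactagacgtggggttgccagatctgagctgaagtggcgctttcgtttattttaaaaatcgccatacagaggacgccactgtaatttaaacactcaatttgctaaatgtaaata

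The strongest site of the window was at the inner Zaf1 promoter. Its summit, 3R:11623193, lay at -96 bp from that TSS (negative is upstream) and at -3696 bp from the CG18764 start, in the 5′ UTR of the longer Zaf1 transcript. The same summit was within 500 bp of the CG14711 start, which faces the other way. It lay at base 96 of the 241 bases between these starts, so the promoters cannot be told apart by it. It is called the Zaf1 site here for the nearer start. The peak was 304 bp wide and ranked 88 of 3754 in the optimal list by the authors' signal value. Replicate 2 held a summit at the same base and ranked it 90, with a peak of 291 bp. Replicate 3 held one 6 bp away and also ranked it 90, with a peak of 264 bp. Replicate 1 held no summit within 100 bp, and its nearest lay 5699 bp away. Replicates 2 and 3 thus placed the site at the same rank, and the replicate 1 list did not contain it. On the CG14711 side, replicate 3 held a further summit 49 bp past that gene's start, of rank 4806. The outer Zaf1 promoter had no optimal or pooled summit within 500 bp. Only low-ranked summits lay there, at rank 26559 in replicate 2 (496 bp from the TSS) and 25440 in replicate 3 (65 bp).

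**Figure D1:**
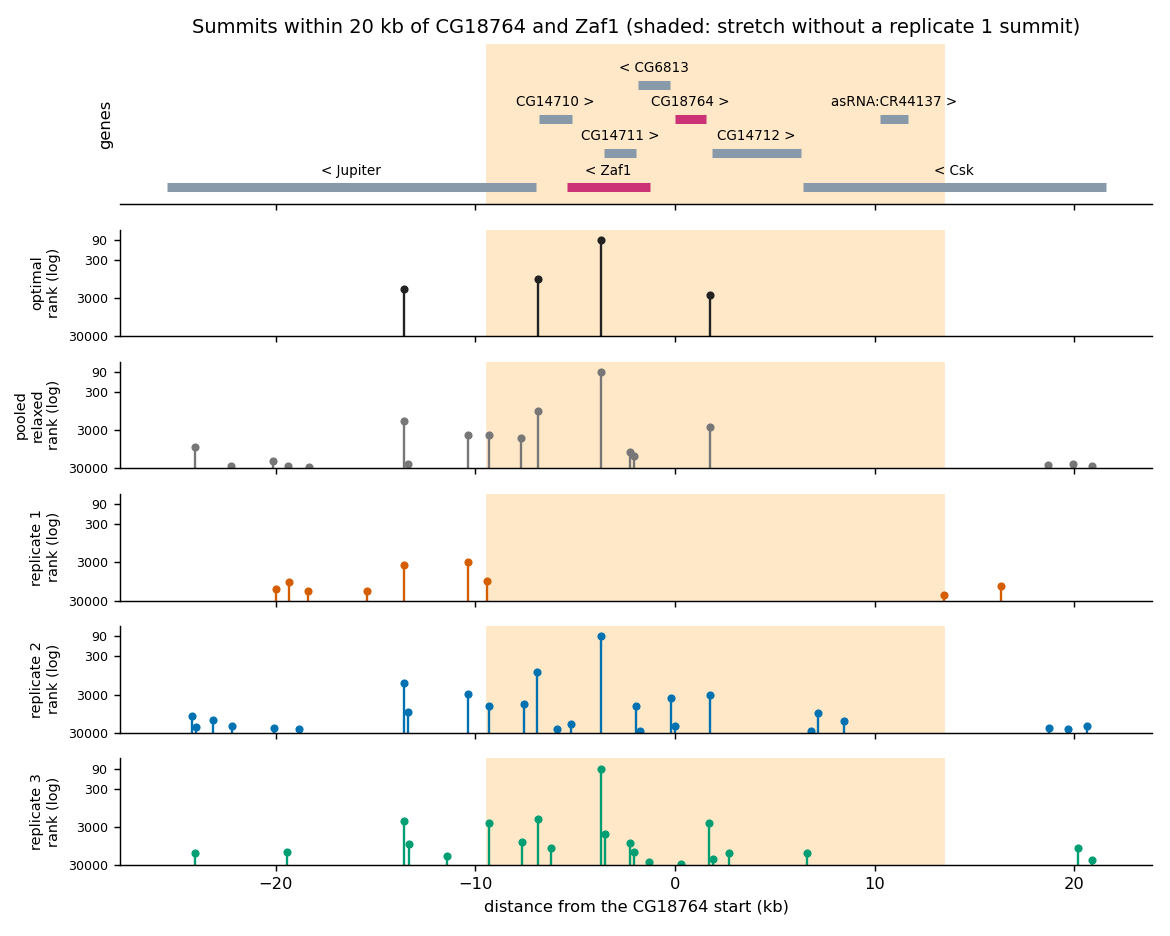
Map of the window, with distance from the CG18764 start in kb on the x axis, the genes on top (members in red, strand shown by arrows, genes cut at the window's edges) and below them the summits of each of the 5 lists, each as a line whose height gives its signal rank on a log axis (taller is a better rank). The highest line, at -3696 bp, is the Zaf1 site, with rank 88 in the optimal list and 90 in replicates 2 and 3, and the shaded 22.8 kb held 0 summits of replicate 1.

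The CG18764 promoter had no optimal summit and no pooled relaxed summit within 500 bp of its TSS. The nearest summit in both lists was the one 1734 bp past the start, beyond the end of the gene. Over all protein-coding genes, 17.9% had an optimal summit within 500 bp of a TSS and 49.1% had a pooled relaxed one. Replicate 2 did hold a promoter summit, at 3R:11626683, at -206 bp from the CG18764 start and -45 bp from the CG6813 start that faces away from it. That summit ranked 3601 and its deposited −log10 q was at the list's maximum of 3.94. In that list 4309 of the 30000 summits were at the maximum, so the q-value adds little to the rank. Another replicate 2 summit, 17 bp past the CG18764 start, ranked 20292 with a −log10 q of 0.37. Replicate 3 held 1 summit within 500 bp, 293 bp past the start in coding sequence, of rank 28466 and −log10 q 0.14. Replicate 1 held none, and its nearest summit was at -9395 bp. The better replicate 2 summit was thus at about the best 12% of its list, and replicates 1 and 3 held no summit within 100 bp of it. The replicate 3 summit was a different one, near the bottom of its list.

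These calls were not rare for a promoter. The shares of protein-coding genes with a summit within 500 bp were 39.7%, 50.8% and 53.2% in replicates 1, 2 and 3. Among the 3754 highest peaks of each replicate, the number in the optimal list, the shares were 17%, 17.6% and 18%. The CG18764 promoter was among them in replicate 2, through the summit of rank 3601. Its start shares that summit with CG6813, so the 2 promoters cannot be told apart by it.

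**Figure D2:**
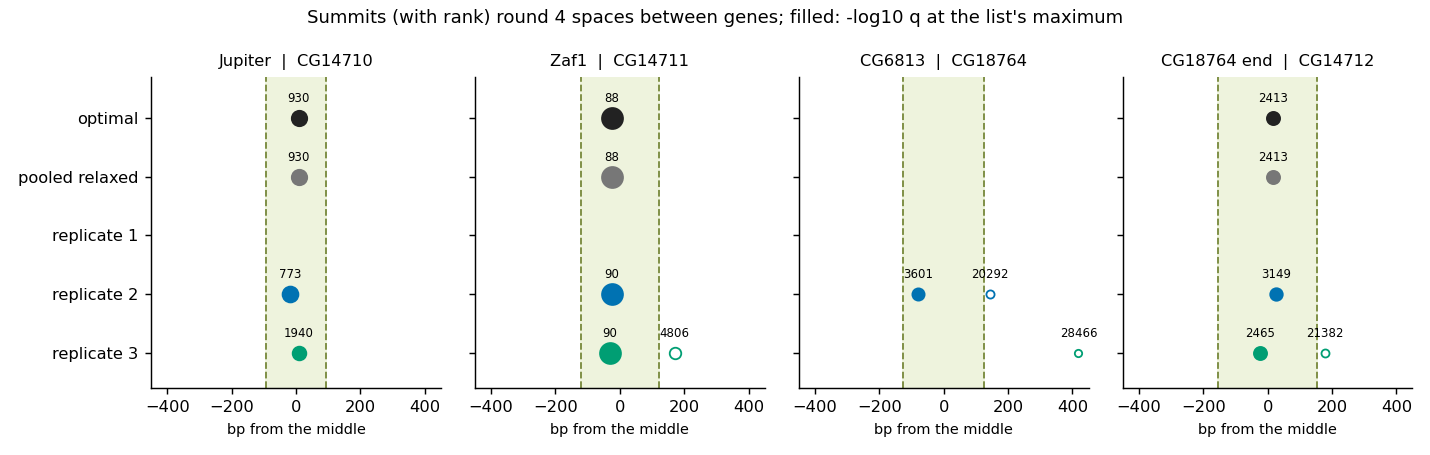
Summits round 4 spaces between genes, with bp from the middle of the space on the x axis and 1 row for each list; dashed lines mark the start sites (in the last panel the CG18764 end and the CG14712 start), numbers are signal ranks, larger circles have better ranks and filled circles have a −log10 q at their list's maximum. The CG6813 and CG18764 space holds a filled circle in replicate 2 alone (rank 3601). The other 3 spaces hold filled circles in replicates 2 and 3 and in the pooled and optimal lists. The optimal list is drawn from the pooled one, so these are not separate calls.

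The other 3 optimal sites of the window had lower ranks. The summit at 3R:11620006 lay between the divergent starts of Jupiter and CG14710, at -84 bp from CG14710, and ranked 930. Its peak was the narrowest of the 4, at 145 bp. Replicate 2 ranked the site 773 and replicate 3 ranked it 1940, while the nearest replicate 1 summit was 2512 bp away. Replicate 2 gave it a better rank than replicate 3.

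The site closest to the body of CG18764 lay behind the gene. Its summit, 3R:11628623, was 171 bp past the CG18764 end and at -136 bp from the CG14712 start, in sequence that belongs to no gene. It ranked 2413 in the optimal list, with a width of 400 bp. Replicate 2 ranked it 3149 and replicate 3 ranked it 2465. The nearest replicate 1 summit was 11129 bp away.

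The last site, 3R:11613320, lay in an intron of Jupiter, 6586 bp into the gene and at -13569 bp from the CG18764 start. It ranked 1686 in the optimal list. It was the only one of the 4 that replicate 1 held. The ranks were 3556, 1467 and 2100 in replicates 1, 2 and 3, a mean of 2374 ± 1071 (SD, n = 3). Replicate 1 gave the lowest of these 3 ranks, and its −log10 q of 0.98 was below that list's maximum of 3.20. The summits of replicates 2 and 3 were at the maximum of their own lists. The lists differ in how many summits reach it: 802, 4309 and 2627 in replicates 1, 2 and 3. The contrast is thus not particular to this site.

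Just below the rank of the optimal list, the pooled relaxed list held weaker sites. A Jupiter intron summit at 3R:11616536 ranked 3949 in it, with rank 2924 in replicate 1 and 2929 in replicate 2, and replicate 3 held no summit within 100 bp of it. Another Jupiter intron summit, 3R:11617563, ranked 4055 in the pooled list, and 9124, 6007 and 2388 in replicates 1, 2 and 3. A further Jupiter summit, 3R:11619175, 731 bp into the gene, ranked 4856. Over the 3′ part of CG14711, which overlaps Zaf1, the pooled list held summits of rank 11134 and 14163. Apart from these, no pooled summit lay between the Zaf1 site and the one before CG14712, so CG18764 itself was bare in that list. Replicates 2 and 3 held 1 summit each in the body of CG18764, at ranks 20292 and 28466.

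The nearest optimal sites outside the window were held by every replicate on its right side. A Csk intron summit 1200 bp beyond the edge, 3R:11649652, ranked 322 in the optimal list. It ranked 336, 355 and 313 in replicates 1, 2 and 3, a mean of 335 ± 21 (SD, n = 3). The summit at the outer Csk promoter, 3R:11650764, ranked 2293, with 2480, 2913 and 2927 in the replicates (2773 ± 254, SD, n = 3). These 2 sites had a much smaller spread of ranks than the Jupiter intron site, and replicate 1 gave the best rank of the 3 at the outer Csk promoter. On the left the next optimal summit was 19100 bp outside, in an intron of wkd. It ranked 2902 in the optimal list, 2948 in replicate 2 and 1864 in replicate 3, and replicate 1 held none within 100 bp.

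**Figure D3:**
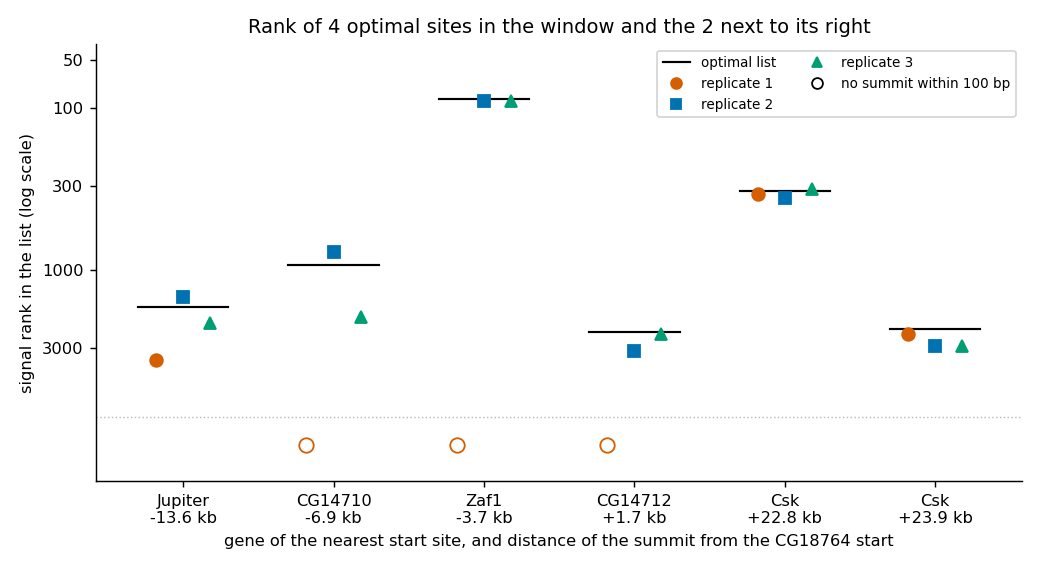
Signal rank (log axis, best at the top) of the 4 optimal sites of the window and the 2 next to its right in the optimal list (line) and in each replicate (points); open circles mark a replicate with no summit within 100 bp. Replicate 1 lacks the CG14710, Zaf1 and CG14712 sites and holds the 2 Csk sites at ranks 336 and 2480.

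Replicate 1 therefore held 1 of the 4 optimal sites of the window, 25%, and replicates 2 and 3 held all 4. The mean recovery was 75% ± 43.3 (SD, n = 3). Of the 4 sites, all 4 were in both other replicates when replicate 1 was left out, and 1 was when replicate 2 or replicate 3 was left out. The optimal list was drawn from the pooled data of these same replicates. A listed site that 1 replicate lacks is therefore likely to be held by the others, and these shares do not measure recovery independently. Over the whole optimal list the summits without a replicate summit within 100 bp were 8.44% in replicate 1, 3.28% in replicate 2 and 3.09% in replicate 3. The Zaf1 site was the best-ranked optimal summit missing from replicate 1, and the next one ranked 173. Of the 100 optimal summits within 50 ranks of the Zaf1 site, 0 were missing from replicate 1, 0 from replicate 2 and 1 from replicate 3. At the rank of the Zaf1 site, a missing summit was thus uncommon in every replicate, a comparison chosen after the data were seen.

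The 3 sites missing from replicate 1 lay side by side in 1 long stretch without any replicate 1 summit. It ran from 3R:11617494, a summit of rank 9124, to 3R:11640340, of rank 21575, over 22.8 kb. Measured from the CG18764 start, it reached from -9395 to 13451 bp, and its midpoint was 465 bp past the end of CG18764. Its length and midpoint depend on the summits at its ends, and the right one had a −log10 q of only 0.05. Right of the CG14712 site the pooled list held no summit until 3R:11645595, beyond the stretch. Apart from that site, the best ranks in this right part were 9113 in replicate 2 and 14939 in replicate 3. The right part was thus sparse in strong summits in every list. The stretch covered all of Zaf1 and CG18764 and at least 1 start site of each of the 9 genes. Replicates 2 and 3 each held 14 summits there, with ranks from 90 to 27807 and from 90 to 28466. In each of them 4 of these were among the 3754 highest peaks of the replicate. The pooled relaxed list held 7. These counts include a site at the left end that lay within 100 bp of the replicate 1 summit there. Without it, replicates 2 and 3 held 13 each, of which 4 and 3 were among the 3754 highest, and the pooled list held 6. The assembled sequence of the stretch had 0 unknown bases, and 0 transposon insertions are annotated in it.

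All 9 replicate 1 summits of the window lay outside the stretch or at its ends. The 7 on the left were in Jupiter introns, the best at rank 2924, and the 2 on the right were in Csk. Replicate 2 held 26 summits in the window and replicate 3 held 21, spread over both flanks and the stretch. The mean was 18.7 ± 8.74 (SD, n = 3).

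Few gaps were as long as this stretch, and fewer held as many optimal summits. Replicate 1 had 29993 gaps between neighbouring summits, of median 2611 bp, and 464 of them (1.55%) were as long. Gaps that held 3 or more optimal summits numbered 10 in replicate 1, 1 in replicate 2 and 0 in replicate 3. Gaps with 2 numbered 200, 102 and 101. These counts include optimal summits close to a gap's end, which a replicate summit may match. A stricter count took runs of neighbouring optimal summits with no replicate summit within 100 bp. There were 11 runs of 3 or more in replicate 1, and 0 in replicates 2 and 3. At a distance of 1000 bp, 5 runs remained in replicate 1, the CG18764 and Zaf1 run among them. The best optimal rank in those 5 runs was 88 at Zaf1, and 1549, 2500, 2552 and 3342 in the other 4. Replicate 1 thus lacked runs of sites elsewhere too, though the other runs held only lower ranks. The stretch and these counts were chosen after the data were seen, and the cause of the stretch was not tested.

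**Figure D4:**
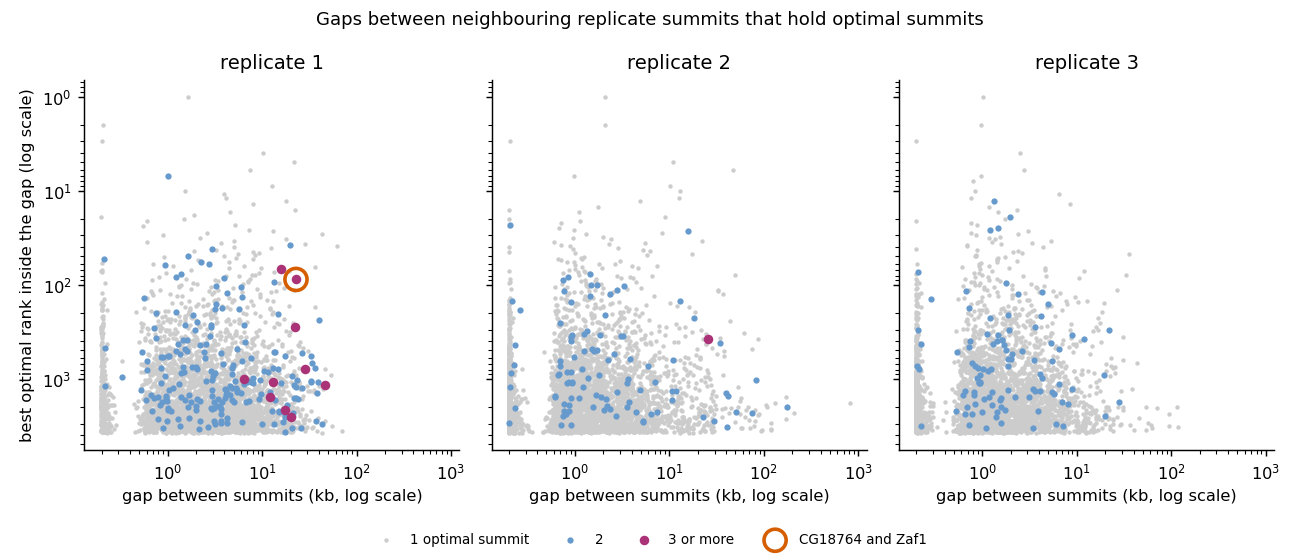
Gaps between neighbouring summits of each replicate that hold at least 1 optimal summit, by length in kb (x, log axis) and the best optimal rank inside (y, log axis, best at the top), coloured by the number of optimal summits inside. The ringed point is the 22.8 kb gap of replicate 1 at CG18764 and Zaf1, which holds 3 optimal summits with a best rank of 88.

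The window was fairly dense in summits in every list but that of replicate 1. It held 8.51 optimal summits per 100 kb against 2.74 over the genome. The relaxed lists gave 38.3 in the pooled list and 19.2, 55.3 and 44.7 in replicates 1, 2 and 3, each against 21.9 over the genome. For comparison, a window of the same length, 47 kb, was centred on the midpoint of each of 13968 protein-coding genes. These windows had a median of 2 optimal summits, and 18.7% had 4 or more. For the pooled relaxed list the median was 12, and 23.2% had 18 or more. In replicate 1 the median was 11, and 38% had 9 or fewer. In replicates 2 and 3 the median was 13, and 7.28% and 18.9% had as many summits as here. The count of replicate 2 was thus high among gene windows and that of replicate 1 was within the middle of them, despite the stretch without a summit.

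Some neighbouring summits in the window may mark 1 site. In replicates 2 and 3, 30.8% and 38.1% of the window's summits had another within 250 bp, against 20% and 18.3% over the whole lists. The 9 replicate 1 summits of the window had none, against 9.72% over that whole list, and 9 are too few to read a difference. Counted once within 250 bp, a choice made after the data were seen, the replicates held 9, 22 and 17.

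**Figure D5:**
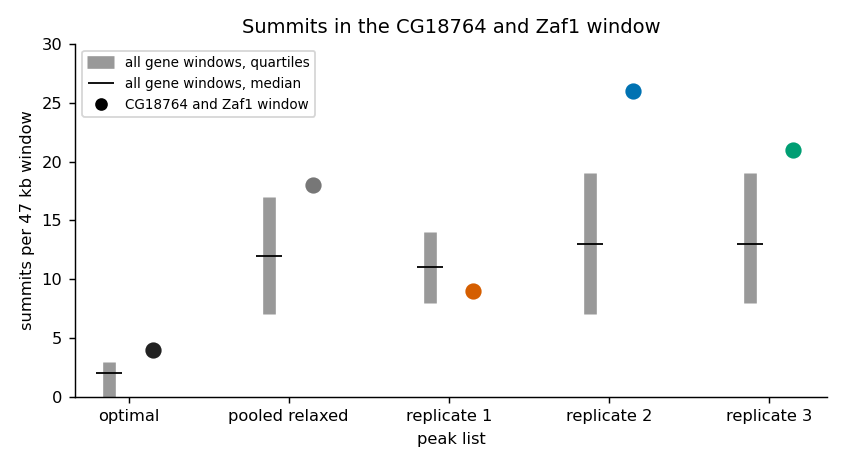
Number of summits in the window (points) in each list, beside the median (line) and the quartiles (bar) of the same count in windows of the same length centred on all 13968 protein-coding genes. The window is above the upper quartile in the optimal, pooled, replicate 2 and replicate 3 lists and between the lower quartile and the median in replicate 1.

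Promoters of the window often had an optimal summit. Of its 9 genes, 6 had one within 500 bp of a TSS, against 14.8% of all genes. They were Jupiter and CG14710, which share the summit of rank 930, Zaf1 and CG14711, which share that of rank 88, CG14712, and Csk. The Csk summit, of rank 2293, was at its start site beyond the window's edge, so 5 genes had a summit at a start inside the window. With 2 pairs of genes each sharing a summit, the 6 genes stand for 4 sites. CG18764, CG6813 and asRNA:CR44137 had none. Of the 3 close divergent pairs, the CG6813 and CG18764 pair was the one without an optimal summit.

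Genes for other ZAD or architectural proteins were counted in the same way. Of 24 listed genes, all in the annotation, 9 had an optimal summit within 500 bp of a TSS, where 17.9% of all protein-coding genes had one. The list mixes ZAD genes with other architectural genes, so the count does not describe the ZAD family alone. Those ranked 500 or better were Chro at rank 11, pzg at 111 and Cp190 at 187. The rest of the genes with a summit ranked from 743 to 2794. Chro encodes the chromodomain protein Chromator, and Cp190 encodes a cofactor recruited by many insulator proteins. The summit that Zaf1 shares with CG14711, at 88, came between Chro and pzg in the optimal list.

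The sequence at the sites was compared with all 3754 optimal summits and with all promoters, as a description. In the 300 bases round its summit the Zaf1 site held 4 matches to the BEAF-32 core, all on the CG14711 side of the summit and between 94 and 125 bp from it. As many were found round 145 of the 3754 optimal summits (3.86%), a comparison chosen after the matches were seen. At least 1 BEAF-32 core was present at 2 of the 4 sites of the window, Zaf1 and CG14712, and at 40.7% of all optimal summits. The space between CG6813 and CG18764, without an optimal summit, held 2 BEAF-32 cores and 1 TATA box. The TATA box was found at the other 3 sites of the window, and at 45.4% of all optimal summits. At the Jupiter intron it lay at -104 and -102 bp from the summit, at or beyond the left edge of the printed bases, which is why none is in capitals there. At the CG14710 and CG14712 sites it lay at -19 and -26 bp from the summit along the plus strand. The homeodomain core was found at the Zaf1 site alone among the 4, and at 22.9% of all optimal summits.

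For the remaining motifs, 4 sites and 3 promoters are too few to read a difference from the background. The DRE, the GAGA repeat, the E-box and the M1BP motif were in none of the 4 site windows, against 6.45%, 33%, 3.3% and 2.18% of all optimal summits. Over the 3 promoters of the members, taken from 250 bp before to 50 bp after each start, the BEAF-32 core was at the inner Zaf1 and the CG18764 promoter, and at 43.5% of 23697 promoters. The TATA box was at the CG18764 promoter (41.4% of all promoters), the homeodomain core at the inner Zaf1 promoter (18.6%) and the E-box at the outer one (4.09%). The DRE, the GAGA repeat and the M1BP motif were at none of the 3, against 6.77%, 32.4% and 3.18% of all. Every DRE holds the BEAF-32 core, so these shares overlap. A match is a run of letters and not a measured site.

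GC content also differed among the sites. In the central 100 bp it was 29% at the Zaf1 site, 33% at CG14712, 37% at CG14710 and 49% at the Jupiter intron. The median over all optimal summits was 33%, with quartiles of 27% and 39%. The Jupiter intron site was thus the GC-richest of the 4, and 94.9% of optimal summits were at or below its value. The middle of the CG6813 and CG18764 space was at 26%.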

How the data were processed

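The authors deposited peak lists in narrowPeak layout, per the labels and file listing: a relaxed list for each of 3 replicates, a pooled relaxed list, and an optimal list after irreproducible discovery rate thresholding. No aligner, caller, version or threshold was given in the sources used here. Depth is unknown. The deposited signal value is a score with no stated scale, and served only to rank peaks inside 1 list. Per the file layout, the −log10 q-value that the authors deposited is capped at each list's maximum. Summits were placed by the deposited offset from the start of the peak. The optimal list was the 3754 highest peaks of the pooled list.

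Coordinates are 1-based on dm6. Genes came from Ensembl release 115 and sequence from the NCBI release 6 assembly. Summits in different lists were matched within 100 bp, and promoters were taken as 500 bp either side of a TSS. The named genes were the members, every gene within 20 kb by position, and the genes nearest each optimal summit. Listed ZAD or architectural genes were named at rank 500 or better. The genes nearest the sites outside the window were named beyond that rule. The members and lists were chosen with earlier results of these data known. The M1BP motif and the others were searched on both strands. The planned counts of protein features were not made, and dm3 lists were not used here. No test was made. Alternatives were other flanks, distances and thresholds, and leaving out each replicate. The software was Python 3.11.15, numpy 2.4.6, pandas 2.3.3 and matplotlib 3.10.9.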

Additional observations from a re-analysis of the deposited data

How the results depend on the processing

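Of 38 alternatives, 31 left a value within 1.5 times of a count or 1 SD of a replicate mean, and 7 moved it further. With a flank of 30 kb the optimal summits rose in number from 4 to 8. Leaving out each replicate in turn, and counting optimal summits held by both others, gave 1 to 4: it was 4 without replicate 1, and 1 without replicate 2 or 3. The pooled relaxed count of 18 became 10 with a flank of 10 kb, and 10 among the peaks above the list's median signal. The replicate mean of 18.7 became 4.33 when each list was taken to its 3754 highest peaks, and 15 to 23.5 leaving out a replicate. The mean recovery of 75% was 62.5% to 100% leaving out a replicate. A CG18764 promoter summit was in 1 replicate within 250 bp and in 2 within 500 bp, where the replicates held different summits. Each of these settings keeps more or fewer bases, peaks or replicates, and no other cause was tested. Ranking by the other deposited score columns was not run, because they are constant. No paired analysis was possible because the design has 1 group. A group of 3 samples was too small for an outlier search. With unknown depth, a missing summit does not show that a site was unbound.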
